A study of Sus scrofa with 13 samples.

Results

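Of the 10283 genes measured under a single symbol, 54 were CD antigens, the numbered surface molecules by which leukocytes are typed, or genes of the major histocompatibility complex (MHC), which in the pig carry the prefix SLA. They were chosen by a naming rule, set with earlier results of these data known. It took every symbol made of CD, digits and at most 1 letter, every symbol beginning with SLA-, and B2M, leaving out CD59. Where a gene had more than 1 probe set, as B2M did, the one with the highest average over the 13 arrays stood for it. By the cells they are known to mark, 11 belong to T and NK cells, 4 to B cells, 9 to monocytes, macrophages and dendritic cells, 4 to most leukocytes, 5 to MHC class I and 8 to MHC class II. The name "leukocyte antigen" is loose for the rest, since 5 mark vessel, stromal or satellite cells and 8 are found on most cell types.

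RNA of the biceps femoris, a limb muscle, was measured on whole-transcript arrays in German Landrace pigs, with 1 animal per array. Animals lacked dystrophin (DMD KO) or were wild type (WT), and 4 DMD KO and 3 WT animals aged 2 days and 3 of each genotype aged 3 months made up the 4 groups, untreated as far as the labels say and called biological replicates by the series' design text. DMD encodes dystrophin, which anchors the muscle fibre to its matrix, and its exon 52 was removed with a modified artificial chromosome in primary kidney cells, from which animals were made by nuclear transfer. Knockout muscle was taken once an animal had died, whereas WT animals were euthanised at a like age, so genotype cannot be told apart from manner of death or from cloning here.

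T cells carry the CD3 chains and CD247, which pass on the signal of the T cell receptor, while B cells carry CD79A and CD79B at theirs. MHC class I molecules, built from an SLA heavy chain and beta-2 microglobulin (B2M), show peptides made inside a cell and are present on nearly every nucleated cell. MHC class II molecules show peptides taken up from outside and are carried by dendritic cells, macrophages and B cells, among other cells. Those named cells also carry CD80 and CD86, the ligands that co-stimulate T cells. In dystrophic muscle, fibres break down and macrophages and lymphocytes are known to enter the tissue. The study's question, as far as its title gives it, is how the muscle of these animals degenerates.

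The deposited values ran from 2.81 to 13.8 on a scale taken as log2, and array medians lay between 7.32 and 7.38. The muscle genes ACTA1 and MYLPF averaged 11.4 to 12.3 on the 13 arrays, far above the median. Both DMD probe sets lay in the same range in KO and WT: the brighter read 12.08 to 12.30 in DMD KO and 11.53 to 12.38 in WT at 2 days, and 11.53 to 11.84 against 11.81 to 12.01 at 3 months. Neither was called, and a probe set that spans many exons does not check the loss of 1 exon. WT replicate 3 at 2 days stood apart from its group along the main axis of spread within groups, which held 44.9% of that spread. Its score was 61.1, against 3.74 and -10.9 in its group. At 3 months DMD KO replicate 3 (-33.7 against -1.13 and -2.76) and WT replicate 1 (-14.9 against 31.6 and 19.2) also lay away from their groups. In whole muscle, fewer cells of a type and less RNA per cell cannot be told apart.

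At 2 days the genotypes differed in 2 of the 54 genes, CD63 and CD80, both higher in DMD KO (3.70% of the genes). Among all named genes, limma called 8.06% higher and 3.32% lower in that comparison, so the share here was below the background. At 3 months, 8 genes were higher in DMD KO and 0 lower (14.8%), where 5.76% of all named genes were called higher and 1.6% lower. These were CD53, CD86, CD80, CD44, CD63, CD109, CD302 and SLA-DQB1. "Called" means an adjusted p under 0.05 by limma with Benjamini-Hochberg adjustment over 21893 probe sets. At an unadjusted p under 0.05, limma counted 6 of the 54 at 2 days and 14 at 3 months. The median difference over the 54 genes was -0.055 at 2 days and 0.013 at 3 months, against -0.024 and -0.035 over all named genes. The called genes came from 5 of the 8 classes.

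**Figure D1:**
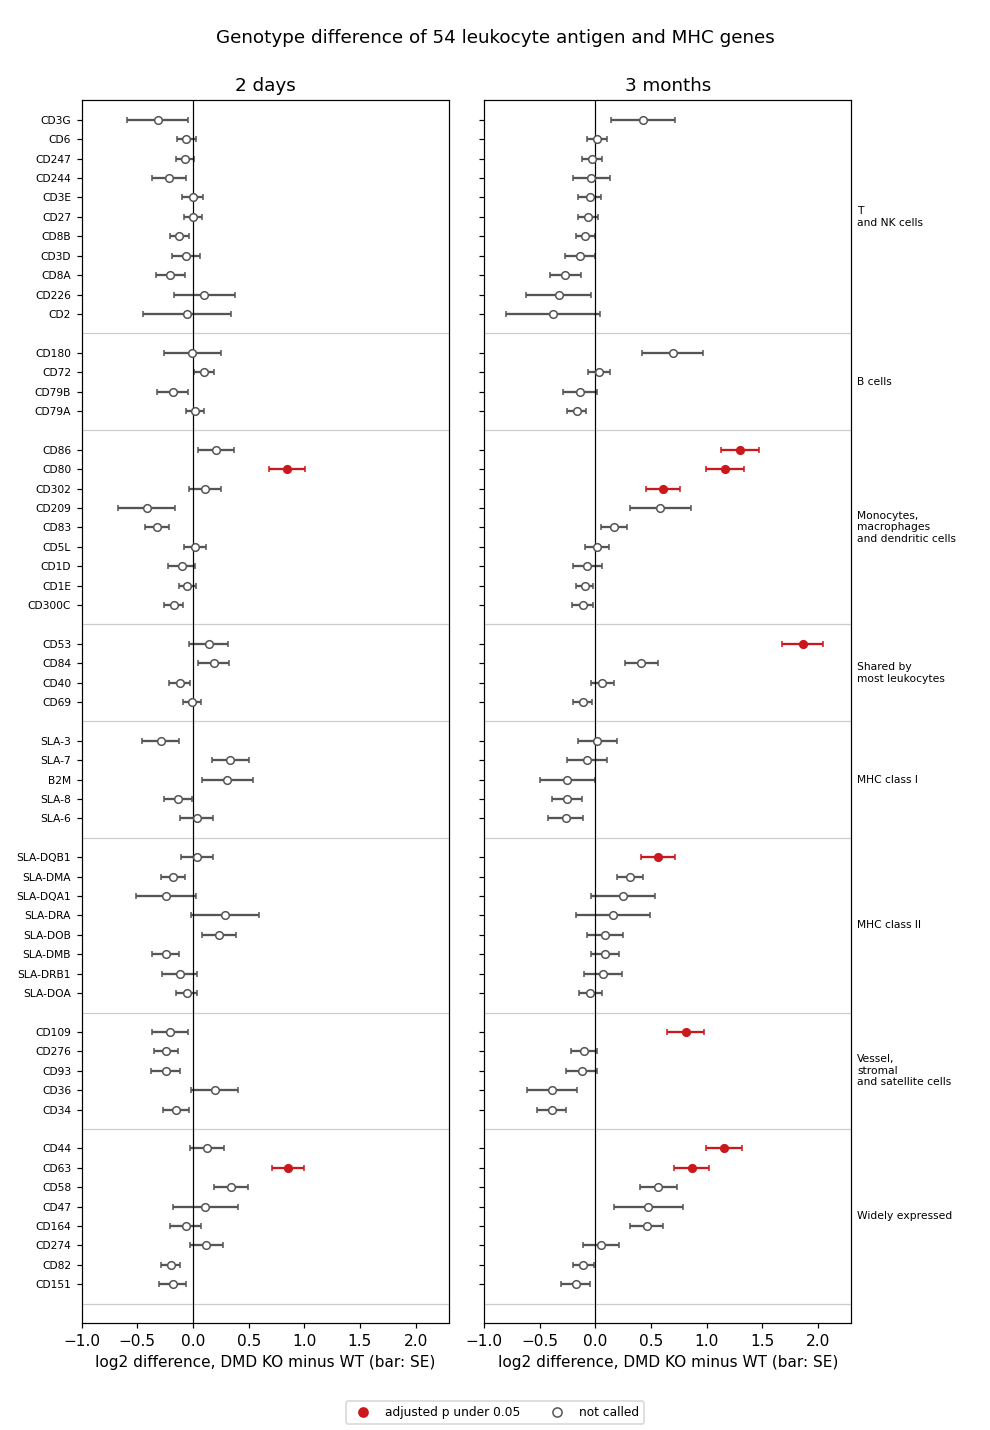
Log2 difference between DMD KO and WT (x axis) for each of the 54 genes (y axis, grouped by the cells they mark) at 2 days and at 3 months, with limma's standard error as bars and filled red points for genes called at an adjusted p under 0.05. At 2 days CD80 (0.84) and CD63 (0.85) stand to the right, and at 3 months CD53 (1.86) lies furthest right. Of the 11 T and NK cell genes, 1 lies above 0 at 2 days and 2 at 3 months, with none called.

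CD53, a tetraspanin carried by nearly all leukocytes, had the largest genotype difference of the 54 genes (probe set 15286344). It read 7.12, 7.11, 7.18 and 7.18 in DMD KO replicates 1 to 4 at 2 days and 6.94, 6.92 and 7.17 in WT replicates 1 to 3. At 3 months it read 8.39, 8.96 and 9.28 in DMD KO and 7.21, 7.07 and 6.76 in WT. The groups overlapped at 2 days, and at 3 months every DMD KO array lay more than 1 log2 unit above every WT array. The difference at 3 months was 1.86 ± 0.19 (SE), or 3.63-fold, with an adjusted p of 9.996e-05, against 0.14 ± 0.17 at 2 days with an adjusted p of 0.622. The change of the genotype difference with age, tested as the interaction, was 1.72 ± 0.25 (adjusted p = 0.00191). WT animals of both ages averaged 7.01. The other 3 genes of this class were not called: CD40 and CD69 differed by 0.06 and -0.11 at 3 months, and CD84, a receptor of the SLAM family, by 0.41 (adjusted p = 0.144), on a dim probe set. CD84 did not overlap between the older groups.

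The 5 named genes whose values followed CD53 most closely over the 13 arrays were MPEG1, LYZ, VSIG4, GMFG and LGMN, with Pearson correlations of 0.987, 0.984, 0.982, 0.981 and 0.98. None of them is among the 54. MPEG1, LYZ and VSIG4 are known from macrophages, and the 13 arrays share the 4 groups, so each correlation follows the group means.

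The monocyte, macrophage and dendritic cell antigens held 3 of the 8 genes called at 3 months and 1 of the 2 at 2 days. CD86 read 6.40, 6.22, 6.40 and 6.14 in DMD KO at 2 days against 5.93, 6.06 and 6.26 in WT, and 7.80, 7.64 and 8.18 in DMD KO at 3 months against 6.83, 6.68 and 6.22 in WT. All 3 older DMD KO animals were above the other 10. The difference of 1.30 ± 0.17 at 3 months (2.46-fold, adjusted p = 0.000688) was larger than that of 0.21 ± 0.16 at 2 days, with an interaction of 1.09 ± 0.23 (adjusted p = 0.0183).

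CD80 binds the same T cell receptors as CD86, CD28 and CTLA4, but its levels followed genotype at both ages. It read 6.64, 6.67, 6.91 and 6.29 in DMD KO at 2 days against 5.70, 5.95 and 5.71 in WT, and 6.72, 7.16 and 6.70 at 3 months against 5.86, 5.79 and 5.44. No DMD KO array overlapped a WT array at either age. The differences were 0.84 ± 0.16 in the younger animals (adjusted p = 0.00754) and 1.16 ± 0.17 in the older ones (adjusted p = 0.00158). Their own difference of 0.32 was not called as an interaction. Both WT means lay below 6.53, the lowest 25th percentile of any array, so no fold is given.

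CD302, a C-type lectin receptor of macrophages and dendritic cells, read 6.53, 6.61, 6.58 and 6.63 in DMD KO at 2 days against 6.61, 6.58 and 6.24 in WT, and 6.80, 6.79 and 7.40 at 3 months against 6.51, 6.34 and 6.33. The older groups did not overlap, and replicate 3 of the DMD KO group stood highest. The difference of 0.61 ± 0.15 (adjusted p = 0.0354) was 0.41 (adjusted p = 0.109) without that array, 0.58 (adjusted p = 0.119) without WT replicate 2 and 0.58 (adjusted p = 0.127) without WT replicate 3. Leaving out any DMD KO array of 2 days also took it just past the threshold, to adjusted p between 0.0532 and 0.0544.

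The other 6 genes of the class were not called between genotypes. CD209, another C-type lectin of macrophages and dendritic cells, read 8.54, 8.41 and 8.40 in DMD KO at 3 months and 7.62, 8.35 and 7.63 in WT, a difference of 0.58 with a 95% interval of -0.01 to 1.18. At 2 days its difference was -0.42 (-0.97 to 0.14). CD83, a marker of mature dendritic cells, was lower in every DMD KO animal at 2 days than in every WT animal, by -0.32 ± 0.11, with an adjusted p of 0.0784. CD1D and CD1E, which present lipids, CD300C, an activating receptor, and CD5L, a protein that macrophages secrete and that fits the naming rule without being a surface antigen, differed by -0.18 to 0.02 at both ages.

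**Figure D2:**
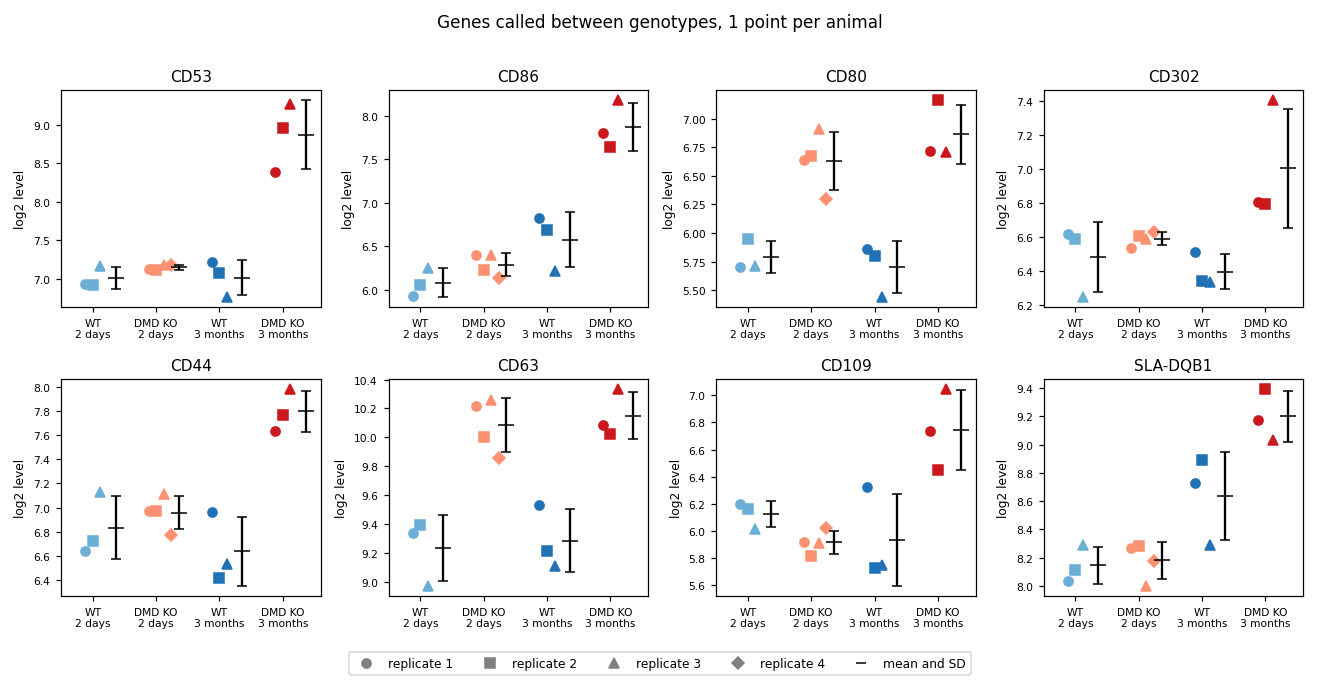
Log2 levels (y axis) of the 8 genes called between genotypes at either age, by group (x axis), 1 symbol per animal by replicate number, with the group mean and SD as black bars. CD53, CD86 and CD44 are high only in the DMD KO group of 3 months (8.39 to 9.28 for CD53), whereas CD80 and CD63 are high in DMD KO at both ages.

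Other genes of these cells moved in the same comparison. Of 10 macrophage markers, 8 were called higher in DMD KO at 3 months, 0 at 2 days (2 at an unadjusted p under 0.05, limma) and 6 in the interaction, with median differences of 0.92 at 3 months and 0.108 at 2 days. At 2 days 4 were called higher under array weights, 2 with the groups of the contrast alone, 2 without DMD KO replicate 3 of 3 months and 1 without replicate 1 of that group. The called ones were led by LYZ (lysozyme, 3.54), MSR1 (a scavenger receptor, 3.10) and MRC1 (the mannose receptor, 2.28), while CSF1R and C1QA were at -0.04 and 0.08. The list mean was 8.39 to 9.10 in DMD KO at 3 months, 7.05 to 7.52 in WT of that age, and 7.15 to 7.47 at 2 days. Of 4 pan-leukocyte genes, LCP1 (2.29) and PTPRC, the common leukocyte antigen (1.46), were called at 3 months, and ITGAL and ARHGDIB were at 0.02 and 0.27. The part of leukocyte number in the levels of CD53, CD86, CD80 and CD302 was not tested.

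CD63 and CD44 were called among the 8 widely expressed genes. CD63, a tetraspanin of lysosomes and extracellular vesicles, read 10.22, 10.005, 10.26 and 9.86 in DMD KO at 2 days against 9.34, 9.39 and 8.97 in WT, and 10.09, 10.03 and 10.33 at 3 months against 9.53, 9.21 and 9.11. The genotypes did not overlap at either age. The differences were nearly equal, 0.85 ± 0.14 at 2 days (1.81-fold, adjusted p = 0.00402) and 0.86 ± 0.15 at 3 months (1.82-fold, adjusted p = 0.00521).

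CD44, the receptor for the matrix sugar hyaluronan, read 6.97, 6.97, 7.11 and 6.78 in DMD KO at 2 days against 6.64, 6.73 and 7.13 in WT, and 7.64, 7.76 and 7.98 at 3 months against 6.96, 6.42 and 6.54. It overlapped between genotypes at 2 days and not at 3 months. The difference at 3 months was 1.15 ± 0.16 (2.23-fold, adjusted p = 0.00116), and the interaction was 1.03 ± 0.22 (adjusted p = 0.0192). The interaction was 0.92 (adjusted p = 0.0515) without WT replicate 2 of 3 months and 0.98 (adjusted p = 0.0529) without replicate 3.

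CD58, the ligand of CD2, read 7.76, 8.11, 8.14 and 7.93 in DMD KO at 2 days against 7.55, 7.74 and 7.64 in WT, and 8.12, 8.0 and 8.75 at 3 months against 7.76, 7.71 and 7.72. It did not overlap between genotypes at either age, with differences of 0.34 at 2 days and 0.56 at 3 months, but passed the threshold at neither (adjusted p = 0.178 and 0.0736). Without DMD KO replicate 2 of 3 months, the older animals gave 0.71 (adjusted p = 0.0399). CD164, a sialomucin, differed by -0.07 and 0.46, and CD47, the signal that restrains uptake by macrophages, by 0.11 and 0.48, neither called. CD164 was called at 3 months without WT replicate 3 of 2 days (0.46, adjusted p = 0.0397) or WT replicate 1 of 3 months (0.58, adjusted p = 0.0464). Repeated quantile normalization (0.40) and array weights (0.44) also called it there. At 2 days CD164 was called lower with the main axis of spread as a covariate (-0.31, adjusted p = 0.0358). Its interaction was called upward under array weights (0.60), with that covariate (0.58) and after repeated quantile normalization (0.70). In those fits CD164 was also called lower with age in WT (-0.51, -0.44 and -0.52). CD274 (PD-L1), CD82 and CD151 lay between -0.20 and 0.12.

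Of the 5 vessel, stromal and satellite cell genes, CD109 alone was called between genotypes, and none was called lower. CD109, a membrane-bound protein that binds the cytokine TGF-beta, read 5.92, 5.82, 5.91 and 6.03 in DMD KO at 2 days against 6.20, 6.16 and 6.01 in WT, and 6.74, 6.45 and 7.05 at 3 months against 6.33, 5.73 and 5.75. The older DMD KO animals were above the other 10. The difference at 3 months was 0.81 ± 0.17 (adjusted p = 0.0133), on a probe set whose WT mean lay below the 25th percentile. It did not pass the threshold without DMD KO replicate 3 (0.66, adjusted p = 0.0643), WT replicate 2 (0.71, adjusted p = 0.0644) or WT replicate 3 (0.72, adjusted p = 0.0678). The interaction of 1.02 ± 0.23 (adjusted p = 0.0240) ranged from 0.87 to 1.02 in the 6 leave-one-out fits that took it past the threshold, with adjusted p up to 0.0665. Those left out replicate 2 of DMD KO at 2 days, replicate 1 of WT at 2 days, replicates 1 and 3 of DMD KO at 3 months, or replicates 2 and 3 of WT at 3 months.

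CD34, carried by vessel lining and resting satellite cells, read 7.54, 7.39, 7.74 and 7.54 in DMD KO at 2 days against 7.54, 7.78 and 7.80 in WT, and 7.23, 7.61 and 7.22 at 3 months against 7.80, 7.74 and 7.70. The older groups did not overlap, with a difference of -0.39 ± 0.13, but the adjusted p was 0.1. Without DMD KO replicate 2 of 3 months CD34 was called (-0.52, adjusted p = 0.0338). CD36, a fatty acid transporter of vessel lining, muscle fibre and macrophage, CD93 and CD276 were not called at either age, at -0.39 to 0.19. With the main axis of spread within groups as a covariate, CD36 was called lower in DMD KO at 3 months (-0.65, adjusted p = 0.031). Array weights also called it (-0.50, adjusted p = 0.0389). Among markers measured beside them, 5 endothelial genes had a median of -0.336 at 3 months with 0 called (3 at an unadjusted p under 0.05, limma). At that age 2 were called lower with the axis covariate, and 1 each under array weights and repeated quantile normalization. At 2 days their median was 0.114 and TEK, the angiopoietin receptor, was called higher in DMD KO (0.65, adjusted p = 0.0461), a call lost without any one DMD KO array of 2 days, WT replicate 1 or 3 of 2 days, DMD KO replicate 3 of 3 months, or WT replicate 2 or 3 of 3 months. It was also lost with the axis covariate, the trended and robust prior, the groups of the contrast alone, repeated quantile normalization and the replicate block. Of 4 satellite cell genes, NCAM1, MET and VCAM1 were called higher at 3 months and VCAM1 at 2 days. CALCR was at -0.02 at 3 months and -0.39 at 2 days, not called. At 3 months 1 of the list was called without DMD KO replicate 2 or 3 or WT replicate 2 of that age. At 2 days 0 were called without DMD KO replicate 2, 3 or 4 of that age. The same held with the axis covariate, the replicate block and the groups of the contrast alone. Under array weights and repeated quantile normalization 1 was called higher and 1 lower at 2 days.

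No T or NK cell antigen was called between genotypes at either age by limma, and none of the 11 had an unadjusted p under 0.05. Their median difference was -0.063 at 2 days and -0.067 at 3 months. At 3 months 2 of them, CD3G and CD2, were called in opposite directions once 1 WT array was left out, as given with their values. The 3 CD3 chains, whose genes lie side by side in the pig genome, were each measured. CD3E read 7.34, 7.45 and 7.23 in DMD KO at 3 months and 7.37, 7.54 and 7.27 in WT, a difference of -0.05 with a 95% interval of -0.27 to 0.17. At 2 days it read 7.35, 7.13, 7.31 and 7.31 against 7.17, 7.31 and 7.35. CD3E thus spanned 0.41 log2 units over the 13 animals, with both genotypes and ages mixed throughout.

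CD3D read 6.69, 6.29, 6.65 and 6.63 in DMD KO at 2 days against 6.65, 6.54 and 6.69 in WT, and 6.74, 6.65 and 6.46 at 3 months against 7.01, 6.62 and 6.63. Its difference at 3 months was -0.14 (-0.43 to 0.16). CD247, the zeta chain, read 7.34, 7.37, 7.34 and 7.47 against 7.34, 7.54 and 7.48 at 2 days, and 7.32, 7.26 and 7.26 against 7.31, 7.42 and 7.20 at 3 months, DMD KO first. Both overlapped at each age.

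CD3G alone of the CD3 chains varied by more than 1 unit. It read 4.89, 4.50, 4.82 and 4.70 in DMD KO at 2 days against 4.81, 5.15 and 5.18 in WT, and 6.19, 6.23 and 5.76 at 3 months against 6.48, 5.43 and 4.98. All 4 group means lay below the 25th percentile of the arrays. Between genotypes at 3 months the difference was 0.43 (-0.20 to 1.06, adjusted p = 0.452). Without WT replicate 1, the highest animal of all, it was 0.85 (adjusted p = 0.0203) and the interaction 1.17 (adjusted p = 0.0190). With age it rose in DMD KO by 1.33 ± 0.27 (adjusted p = 0.00828), and in WT the difference of 0.58 was not called.

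The co-receptor chains CD8A and CD8B, also neighbours in the genome, mark cytotoxic T cells and, for CD8A, some NK cells. CD8A read 6.77, 6.99, 6.92 and 6.78 in DMD KO at 2 days against 6.95, 6.88 and 7.37 in WT, and 6.65, 6.81 and 6.91 at 3 months against 6.85, 7.20 and 7.13. CD8B read 7.55, 7.46, 7.57 and 7.55 against 7.66, 7.55 and 7.76 at 2 days, and 7.66, 7.53 and 7.52 against 7.57, 7.73 and 7.67 at 3 months, DMD KO first. At 3 months the difference was -0.27 (-0.58 to 0.04) for CD8A and -0.09 (-0.28 to 0.10) for CD8B, so the upper end of the CD8B interval was 0.10 units. For CD6, CD27, CD244 and CD226 the differences lay between -0.33 and 0.10 at both ages.

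CD2, the adhesion receptor of T and NK cells, had the widest range of the 54 genes, 2.75 log2 units. It read 5.72, 5.98, 5.84 and 5.59 in DMD KO at 2 days against 5.96, 5.77 and 5.77 in WT, and 6.74, 7.72 and 7.25 at 3 months against 8.23, 8.34 and 6.28. Every animal of 3 months was above every animal of 2 days, and the older WT animals spanned the older DMD KO animals. The genotype difference at 3 months was -0.38 (-1.30 to 0.54, adjusted p = 0.640), and -1.05 (adjusted p = 0.0256) without WT replicate 3. The age difference was 1.78 ± 0.42 in WT (adjusted p = 0.0435) and 1.45 ± 0.40 in DMD KO (adjusted p = 0.0412). The WT call held in 1 of 13 leave-one-out fits, that without WT replicate 3 of 3 months (2.45, adjusted p = 0.000331). The DMD KO call held in 5 of 13, and was lost without any of the 4 DMD KO arrays of 2 days, without replicate 2 or 3 of DMD KO at 3 months, and without WT replicate 1 or 2 of 2 days.

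**Figure D3:**
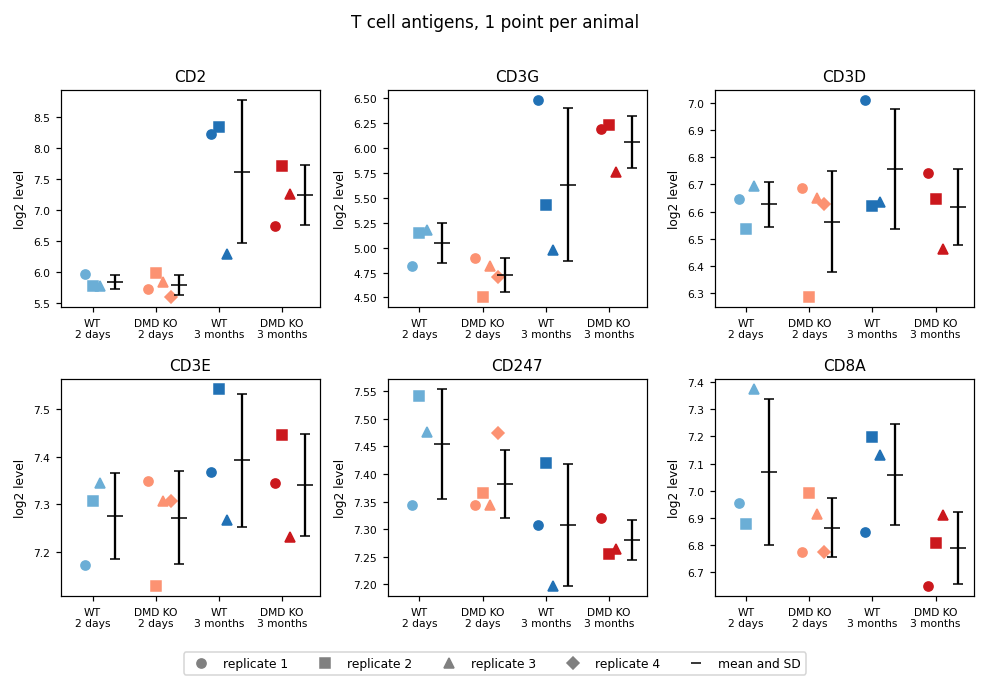
Log2 levels (y axis, scaled per panel) of 6 T cell antigens by group (x axis), 1 symbol per animal, with the group mean and SD as black bars. CD2 is higher at 3 months in both genotypes, with WT animals of that age spread from 6.28 to 8.34. CD3G is higher at 3 months in DMD KO, while its ages overlap in WT. CD3D, CD3E and CD8A overlap between all groups within less than 1 unit. CD247 overlaps between genotypes at each age but not between ages in DMD KO, also within less than 1 unit.

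Among genes that carry the signal behind these receptors, 3 of 7 were called higher in DMD KO at 3 months, namely PTPRC (1.46), LCP2 (1.06) and FYN (0.66). As background, all 3 are also active in other leukocytes or other cells. The kinase LCK and the adaptor LAT, which are largely kept to T and NK cells, were both at -0.10 at 3 months and not called. At 2 days LCK was at -0.32 and LAT at -0.22, also not called. In this list 2 genes were called lower at 2 days under array weights, and 1 with the axis covariate. With the groups of the contrast alone, 1 was called at 3 months. Of 8 genes of cytotoxic lymphocytes, limma called 0 between genotypes at either age, with 1 at an unadjusted p under 0.05 at 2 days and 2 at 3 months. Their medians were -0.104 and -0.094. NKG7, a protein of cytotoxic granules, was at 0.47 at 3 months (adjusted p = 0.0536), while GNLY, granulysin, was at -0.35 (adjusted p = 0.108). NKG7 was also called higher with age in DMD KO (0.57, adjusted p = 0.0115). In this list 1 gene was called higher at 3 months under array weights, with a trended and robust prior, among probe sets above the median level, and without DMD KO replicate 1 of 3 months or WT replicate 3 of 2 days. At 2 days 1 was called lower without WT replicate 1 of 2 days. The mean of that list lay between 6.21 and 6.56 on all 13 arrays.

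The 4 B cell genes were also without a call at either age (limma, 0 and 1 at an unadjusted p under 0.05). CD79A read 6.63, 6.58, 6.69 and 6.59 in DMD KO at 2 days against 6.56, 6.64 and 6.62 in WT, and 6.66, 6.57 and 6.46 at 3 months against 6.62, 6.75 and 6.82. CD79B read 7.25, 6.85, 6.89 and 6.88 against 7.03, 7.02 and 7.40 at 2 days, and 7.09, 6.84 and 6.75 against 7.01, 7.24 and 6.85 at 3 months, DMD KO first. Neither receptor chain separated the groups. CD180, a Toll-like receptor relative of B cells and macrophages, read 5.28, 5.69 and 6.73 in DMD KO at 3 months and 5.46, 5.19 and 4.97 in WT. It was between 4.86 and 5.18 at 2 days and rested on 1 high animal, with a difference of 0.69 (0.10 to 1.29, adjusted p = 0.186). With DMD KO replicate 1 left out, where CD180 was lowest among the older DMD KO animals, its call was made (adjusted p = 0.0385). CD72, a B cell co-receptor, differed by 0.10 and 0.03.

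The ages were then compared within each genotype. In WT, 4 of the 54 genes were higher at 3 months than at 2 days (7.41%) and 0 lower, where 1.94% of all named genes were called higher and 1.39% lower. They were B2M, SLA-DRA, SLA-DRB1 and CD2. In DMD KO, 12 were higher (22.2%) and 1, CD36, lower, where 5.7% and 4.15% of all named genes were. The 12 were the class II genes SLA-DRA, SLA-DRB1, SLA-DQA1, SLA-DQB1 and SLA-DMA, the T cell genes CD2 and CD3G, and CD53, CD86, CD83, CD44 and CD109. The last comparison shares its DMD KO arrays with the genotype comparison at 3 months. Median differences over the 54 genes were 0.046 in WT and 0.135 in DMD KO, against -0.011 and -0.009 over all named genes.

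Among class II genes, 5 of 8 were called with age in DMD KO (median 0.794) and 2 of 8 in WT (median 0.394). In the same comparisons, 8 of 10 macrophage markers and 3 of 4 pan-leukocyte genes were called higher in DMD KO (medians 1.05 and 1.289), and 0 of either in WT by limma (1 of each at an unadjusted p under 0.05, medians 0.102 and 0.32). Their part in the class II levels was not tested. SLA-DRA, the shared alpha chain of the DR molecule, read 8.27, 9.39, 8.43 and 8.52 in DMD KO at 2 days and 10.19, 10.58 and 10.12 at 3 months. In WT it read 7.94, 8.56 and 8.60 at 2 days and 10.49, 10.52 and 9.41 at 3 months. All 6 older animals were above all 7 younger ones, by a narrow margin for WT replicate 3. The rise was 1.65 ± 0.31 in DMD KO (3.13-fold, adjusted p = 0.00484) and 1.78 ± 0.33 in WT (3.43-fold, adjusted p = 0.0124), and the interaction was -0.13 (adjusted p = 0.948). The WT call was lost without WT replicate 2 of 3 months (1.59, adjusted p = 0.0502). Between genotypes SLA-DRA differed by 0.29 (-0.38 to 0.96) at 2 days and by 0.16 (-0.56 to 0.87) at 3 months.

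SLA-DQA1, the alpha chain of DQ, read 7.70, 8.38, 7.80 and 8.18 in DMD KO at 2 days and 9.46, 9.72 and 9.49 at 3 months, against 8.09, 7.98 and 8.69 and then 9.98, 9.25 and 8.71 in WT. The ages were well apart in DMD KO and nearly touched in WT. The rise in DMD KO was 1.54 ± 0.27 (2.92-fold, adjusted p = 0.00305), and the WT difference of 1.06 ± 0.29 had an adjusted p of 0.0783. That difference was called without WT replicate 3 of 2 days (1.28, adjusted p = 0.0388) or of 3 months (1.36, adjusted p = 0.0305). SLA-DRB1, the DR beta chain, read 5.24, 5.71, 5.15 and 5.45 in DMD KO at 2 days and 6.13, 6.28 and 6.70 at 3 months, against 5.69, 5.48 and 5.36 and then 6.16, 6.29 and 6.45 in WT. Older animals were higher without exception. SLA-DRB1 rose by 0.98 ± 0.16 in DMD KO (adjusted p = 0.00194) and by 0.79 ± 0.17 in WT (adjusted p = 0.0277). It lay below the 25th percentile in every group mean. Its WT call was lost without WT replicate 2 or 3 of either age, with differences of 0.72 to 0.80 and adjusted p up to 0.107.

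SLA-DQB1, the beta chain of DQ, was the only MHC gene called between genotypes with all arrays weighted equally. Under array weights SLA-7 (0.42) and SLA-DOB (0.35) were also called, at 2 days. SLA-DQB1 read 8.27, 8.28, 8.0 and 8.18 in DMD KO at 2 days against 8.03, 8.11 and 8.29 in WT, and 9.17, 9.39 and 9.03 at 3 months against 8.73, 8.89 and 8.29. The genotypes overlapped at 2 days and were 0.14 units apart at 3 months. The difference at 3 months was 0.57 ± 0.15 (1.48-fold) with an adjusted p of 0.0485, close to the threshold. It was called in 2 of 13 leave-one-out fits, those without WT replicate 3 of 2 days and without WT replicate 2 of 3 months, and after repeated quantile normalization it was 0.42 (adjusted p = 0.208). With age it rose in DMD KO by 1.02 ± 0.14 (2.02-fold, adjusted p = 0.000737), and in WT the difference was 0.49 (adjusted p = 0.132), or 0.66 (adjusted p = 0.0356) without WT replicate 3 of 3 months.

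SLA-DMA, the alpha chain of the DM molecule that loads peptide onto class II, read 6.57, 6.66, 6.60 and 6.78 in DMD KO at 2 days and 7.08, 7.44 and 7.26 at 3 months, a rise of 0.60 ± 0.11 (adjusted p = 0.00353). In WT it read 6.72, 6.86 and 6.92 and then 6.79, 6.95 and 7.10, with the ages mixed. Its partner SLA-DMB, the next gene along, differed by 0.26 with age in DMD KO and was not called (adjusted p = 0.271). With equal array weights, SLA-DOA and SLA-DOB, which restrain DM, were not called in any of the 5 comparisons, with age differences of 0.12 to 0.30. Under array weights SLA-DOB was called higher with age in WT (0.52, adjusted p = 0.0164).

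**Figure D4:**
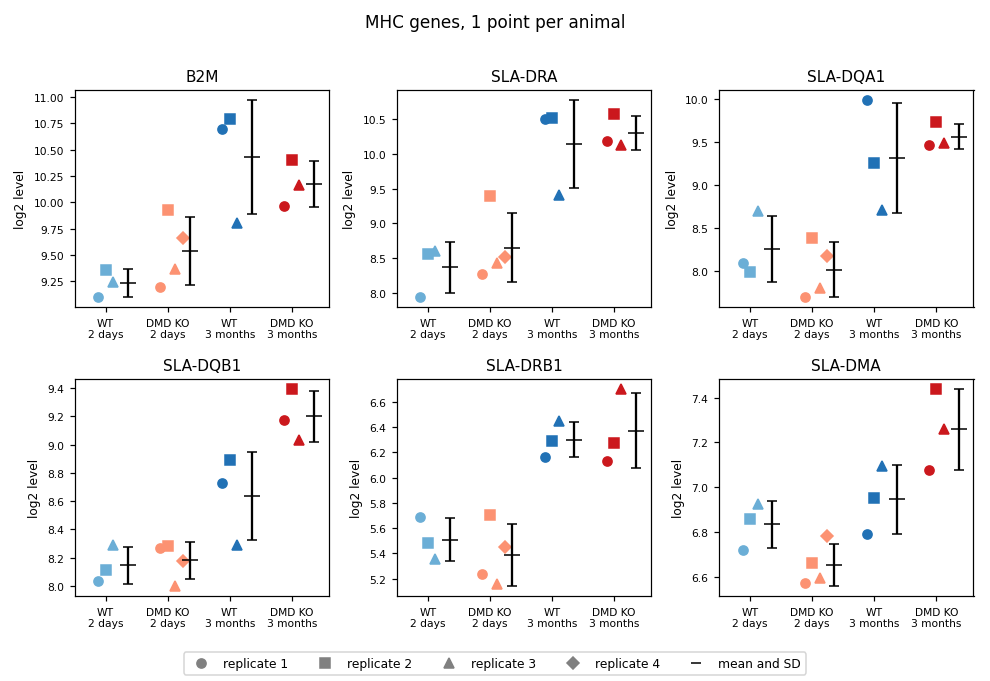
Log2 levels (y axis, scaled per panel) of B2M and 5 MHC class II genes by group (x axis), 1 symbol per animal, with the group mean and SD as black bars. Levels at 3 months lie above those at 2 days in both genotypes for SLA-DRA (9.41 to 10.58 against 7.94 to 9.39) and SLA-DRB1, whereas SLA-DQB1 and SLA-DMA are highest in DMD KO at 3 months.

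Of the class I genes, B2M rose with age in WT. It read 9.10, 9.36 and 9.24 at 2 days and 10.69, 10.79 and 9.81 at 3 months, a difference of 1.20 ± 0.24 (2.29-fold, adjusted p = 0.0218). In DMD KO it read 9.20, 9.93, 9.37 and 9.66 and then 9.97, 10.40 and 10.17, a difference of 0.64 ± 0.23 (adjusted p = 0.128), called without WT replicate 3 of 3 months (adjusted p = 0.0369). The ages did not overlap in either genotype. A second B2M probe set gave 1.12 in WT (adjusted p = 0.0173) and 0.60 in DMD KO (adjusted p = 0.110). The WT call was lost without WT replicate 1 of 2 days (1.13, adjusted p = 0.0649) and without WT replicate 1 (1.07, adjusted p = 0.0766) or replicate 2 (1.02, adjusted p = 0.0776) of 3 months.

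With equal array weights and no covariate, none of the 4 measured heavy chain genes was called in any comparison. SLA-8 was called higher with age in WT with the axis covariate (0.38, adjusted p = 0.0439) and under array weights (0.42, adjusted p = 0.0204). Array weights also called SLA-3 higher with age in DMD KO (0.46, adjusted p = 0.0190). The classical gene SLA-3 read 8.02, 8.24, 8.11 and 8.20 in DMD KO at 2 days against 8.42, 8.13 and 8.74 in WT, and 8.59, 8.68 and 8.19 at 3 months against 8.56, 8.69 and 8.16. SLA-6, SLA-7 and SLA-8 are non-classical genes that follow each other in the genome. SLA-6 read 8.09, 8.06, 8.06 and 8.07 against 8.09, 7.64 and 8.37 at 2 days, and 8.01, 8.09 and 7.70 against 8.19, 8.33 and 8.09 at 3 months, DMD KO first. These overlapped at both ages.

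SLA-7 read 6.41, 6.75, 6.35 and 6.87 against 6.18, 6.10 and 6.51 at 2 days, and 6.37, 6.59 and 6.01 against 6.46, 6.51 and 6.23 at 3 months. SLA-8 read 6.30, 6.40, 6.59 and 6.64 against 6.61, 6.43 and 6.82 at 2 days, and 6.64, 6.84 and 6.66 against 6.78, 7.09 and 7.04 at 3 months, DMD KO first in both. By limma 0 of the 5 class I genes passed an unadjusted p of 0.05 between genotypes at either age, and the median difference was 0.034 at 2 days and -0.252 at 3 months. SLA genes vary between animals and resemble one another, so a probe set can read several of them or miss an allele, and these values are uncertain to that extent.

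The genes that feed the MHC pathway were measured beside it. Of 10 genes for peptide supply and loading of class I, 2 were called at 2 days. PSME1, a proteasome activator subunit, was higher (0.72, adjusted p = 0.0459) and CALR, the chaperone calreticulin, lower (-0.58, adjusted p = 0.0239) in DMD KO. With the replicate block, or without DMD KO replicate 1, 2 or 4 of 2 days, 0 were called at that age. The count was 1 without any other array of 2 days, with the axis covariate or with repeated quantile normalization, among others. At 3 months CALR (0.81) and PDIA3 (0.75) were higher. There 1 was called with the replicate block, the groups of the contrast alone, or without DMD KO replicate 3 or WT replicate 2 or 3. Array weights called 4. Calreticulin and PDIA3 also serve protein folding at large. The peptide transporter genes TAP1 and TAP2 were at -0.20 and -0.11 at 3 months and were not called. Of 7 genes for the control of class II and the cutting of its peptides, the proteases CTSS (2.13) and LGMN (1.63) and the reductase IFI30 (1.38) were called higher at 3 months, and none at 2 days (1 at an unadjusted p under 0.05, limma). The transcription factors RFX5, NFYA, NFYB and NFYC, which bind class II promoters, lay between -0.21 and 0.15 at 3 months and were not called.

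Interferon raises MHC expression in many cells, and 15 genes that respond to it were read on the same arrays. Limma called 0 of them in any comparison, with 2 at an unadjusted p under 0.05 at 2 days and 0 at 3 months, and with medians of 0.325 and -0.164. At 2 days 14 of the 15 had a difference above 0, and 8 were called higher in DMD KO under array weights. Their mean was 7.12, 8.14, 6.93 and 8.28 in DMD KO replicates 1 to 4 at 2 days and 6.54, 6.85 and 7.60 in WT. At 3 months it was 7.31, 7.63 and 7.18 in DMD KO and 7.65, 8.23 and 6.81 in WT. The list mean was highest in replicates 2 and 4 among DMD KO animals of 2 days, and of the 13 MHC genes 8 were highest in replicate 2 and 3 in replicate 4. It was lowest in replicate 3 among WT animals of 3 months, where 8 of the 13 MHC genes were lowest, B2M and SLA-DRA among them, and 3 were highest, namely SLA-DRB1, SLA-DMA and SLA-DOB. The part of interferon genes in the MHC levels was not tested.

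The interaction called 4 of the 54 genes (7.41%), CD53, CD86, CD44 and CD109, each with a larger genotype difference at 3 months, and 0 in the other direction. Among all named genes 3.75% were called upward and 2.41% downward. The median interaction was 0.052 over the 54 genes and -0.003 over all named genes. CD63 and CD80, called at both ages, had interactions of 0.01 and 0.32 and were not among them. Of 6 fibroblast genes, limma called 5 lower and 0 higher in the 2-day DMD KO group, 3 higher and 0 lower at 3 months, and 5 in the interaction. At 3 months only 1 was called with the replicate block, or without any one DMD KO array or WT replicate 2 of that age. The mean of that list was 8.95 to 9.24 in DMD KO and 10.22 to 10.29 in WT at 2 days, and 10.29 to 10.40 against 9.64 to 9.93 at 3 months. Their part in the levels of CD44, CD109 and CD63, which fibroblasts also carry, was not tested.

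Between ages in DMD KO, 2 further genes were called. CD83 read 7.12, 7.12, 6.86 and 6.70 at 2 days and 7.53, 7.50 and 7.46 at 3 months, a rise of 0.55 ± 0.11 (adjusted p = 0.00635). In WT it read 7.23, 7.29 and 7.29 and then 7.43, 7.22 and 7.35. Every older DMD KO animal was above every older WT animal, by 0.17, which was not called (adjusted p = 0.463). The interaction of CD83 was 0.49 (adjusted p = 0.112), and 0.48 under array weights, where it was called (adjusted p = 0.039). CD36 read 11.98, 11.82, 12.00 and 12.03 at 2 days and 10.75, 10.97 and 11.69 at 3 months, so that it fell by 0.82 on the log2 scale (adjusted p = 0.0324). In WT it read 11.90, 12.10 and 11.29 and then 11.56, 11.57 and 11.44. The fall of CD36 was -0.63 (adjusted p = 0.155) without DMD KO replicate 1 of 3 months and -0.74 (adjusted p = 0.137) without replicate 2, and it was also not called without any one DMD KO array of 2 days.

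The range over the 13 arrays was under 0.5 log2 units for 15 of them (27.8%), against 24.4% of all named genes, and the median range was 0.74 against 0.72. Among T and NK cell genes 5 of 11 stayed under 0.5, namely CD6, CD8B, CD27, CD247 and CD3E, and among B cell genes 2 of 4. The shares were alike for monocyte, macrophage and dendritic cell genes (4 of 9) and for genes of most leukocytes (2 of 4). All group means lay below the 25th percentile for 8 of the 54 (14.8%), against 14.0% of all named genes. A flat, dim probe set can reflect a low level or a poor probe, which the arrays do not separate. The ranges were widest for CD2 (2.75), SLA-DRA (2.64), CD53 (2.52), SLA-DQA1 (2.29) and CD86 (2.25).

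**Figure D5:**
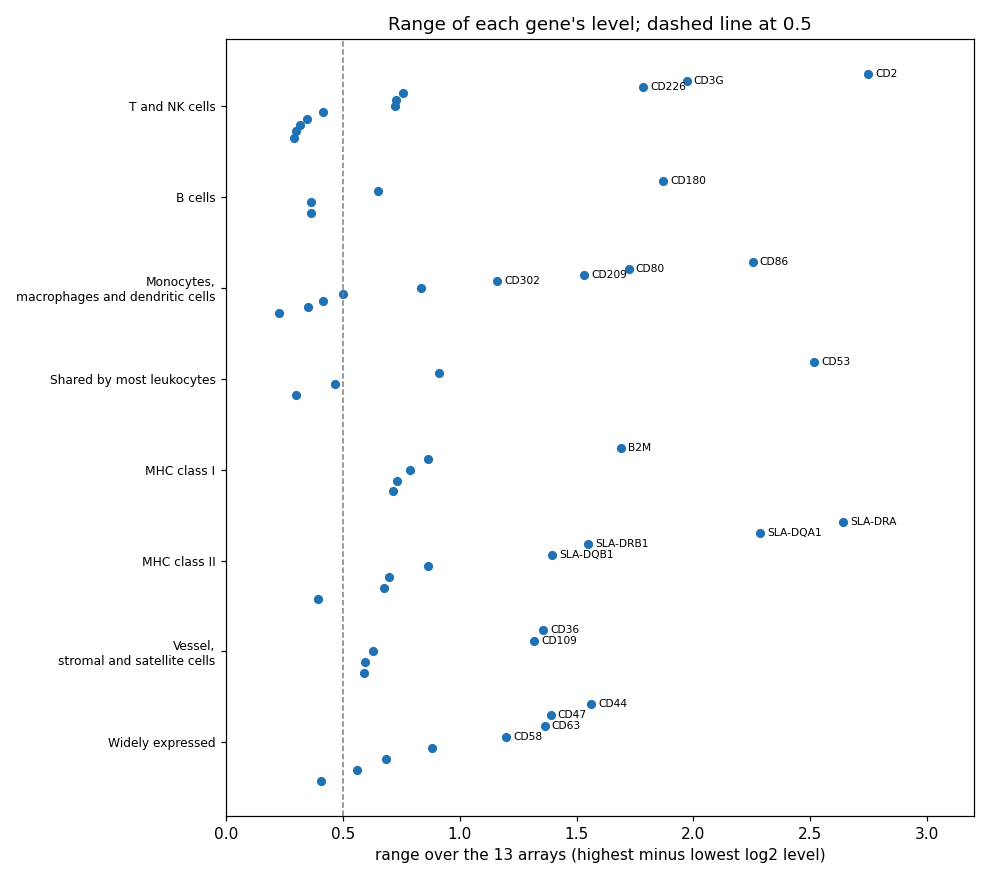
Range of each gene over the 13 arrays (x axis, highest minus lowest log2 level) by the cells it marks (y axis), 1 point per gene, with names for ranges above 1 and a dashed line at 0.5. Left of the line lie 5 of 11 T and NK cell genes, 2 of 4 B cell genes, 4 of 9 monocyte, macrophage and dendritic cell genes and 2 of 4 genes of most leukocytes. CD2 lies furthest right at 2.75, and no class I gene lies left of the dashed line.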

How the data were processed

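The table holds 21893 probe sets by 13 arrays and was used as deposited. Per the submitters' processing notes, the tool by which the authors made these log2 levels was Affymetrix Power Tools, and the log base was inferred from the range of values. The version, the summary method and any background or between-array correction are not given here. Arrays hold no counts, so precision rests on their number.

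The platform annotation paired 11028 probe sets with 1 symbol, 418 with several and 10447 with none. The naming rule also fits 2 probe sets with several symbols, not analysed here. RefSeq holds 92 symbols that fit, of which 54 were measured and 38 not analysed here, CD4, CD14, CD68, CD163 and CD74 among them.

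Limma 3.58.1 (lmFit and eBayes, R 4.3.3) fitted the 4 groups together, with no filter and 9 residual degrees of freedom, for 5 contrasts: genotype within each age, age within each genotype, and their interaction. P-values are two-sided, with Benjamini-Hochberg adjustment over all 21893 probe sets; a call is an adjusted p under 0.05. The p-values set each difference against the spread between these animals within the groups. SE is limma's moderated error. The method was tested on simulated data in which each probe set varied independently. That test does not cover spread that probe sets share on an array. The 54 genes, their classes and 13 marker lists were chosen with earlier results of these data known. Genes were named if called in a contrast, if they define a class, or, in a marker list, as up to 3 called genes; others were chosen after their values were seen. Alternatives were array weights, a replicate block, a spread covariate, quantile normalization, a trended and robust prior, the mean of a gene's probe sets, a level filter, the groups of a contrast alone, and leaving out each array.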

Additional observations from a re-analysis of the deposited data

Results flagged for a closer look

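In the DMD KO group of 2 days, the only group of 4, a single animal stood apart from the other 3 by Dixon's test in 4 of the 54 genes. These were CD1E with 7.009 in replicate 2, CD247 with 7.474 in replicate 4, CD3D with 6.286 in replicate 2 and CD79B with 7.245 in replicate 1. Chance flags about 1 group in 20, and 54 were tested. Groups of 3 were not tested.

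The genotype difference at 3 months exceeded that at 2 days, by limma's interaction, in CD53 by 1.7211 (adjusted p = 0.00191), CD86 by 1.0888 (adjusted p = 0.0183), CD44 by 1.0301 (adjusted p = 0.0192) and CD109 by 1.0174 (adjusted p = 0.0240). CD53 kept its call in all 20 alternatives run, and CD86 in 18 of 19.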

How the results depend on the processing

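Of 31 called differences, 19 kept their call in every alternative that tested them, and over 628 such tests 82 ended a call and 0 turned a direction. Main counts of called genes, in the order 2 days, 3 months, age in WT, age in DMD KO and interaction, were 2, 8, 4, 13 and 4. Array weights (whose estimation stopped before converging) gave 7, 13, 8, 19 and 9. The axis of within-group spread as a covariate gave 8 for age in WT. Keeping probe sets above the median level left 23 of the genes, with 1, 3, 2, 5 and 1 called. The groups of a contrast alone gave 5 at 3 months and 0 for age in WT. Leaving out 1 array gave 5 to 9 at 3 months, 0 to 5 for age in WT and 2 to 5 in the interaction, with the lowest of these without DMD KO replicate 3 of 3 months (5), without WT replicate 2 of 3 months (0) and without WT replicate 2 or 3 of 3 months (2); age in WT also fell to 2 without WT replicate 1 or 2 of 2 days or replicate 1 of 3 months. Same-numbered animals did not deviate together (correlations of -0.351 to 0.309), so the numbers were not taken as pairs, and the replicate block gave 2 for age in WT and 1, CD53, in the interaction, with 2, 6 and 11 elsewhere. In that fit the interaction was 1.04 (adjusted p = 0.0876) for CD86, 0.97 (adjusted p = 0.0649) for CD44 and 1.05 (adjusted p = 0.0548) for CD109. Under array weights, genotype calls were also made for 5 more genes at 3 months: CD164, CD36, CD3G, CD84 and CD8A, of which CD36 (-0.50) and CD8A (-0.33, adjusted p = 0.0407) were lower in DMD KO, and for 5 more at 2 days, with CD58 (0.41), SLA-7 (0.42) and SLA-DOB (0.35) higher and CD83 (-0.31) and CD300C (-0.21) lower. The cause of these changes was not tested. Dim probe sets, 8 of the 54 genes in every group, limit what can be seen of CD3G, CD226, CD180 and SLA-DRB1 among others.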
